A study of Mus musculus with 2 samples.

Results

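The clustered protocadherin genes are the 57 protein-coding genes of GENCODE vM21 on mouse chromosome 18 whose symbols start with Pcdha, Pcdhb or Pcdhg, out of 21853 protein-coding genes in the annotation. They lie in 3 tandem clusters on the plus strand. On GRCm38, and counted from 1 kb upstream of the first exon, the 14 genes of the alpha cluster span chr18:36929285-37187661, the 22 genes of the beta cluster span chr18:37263938-37524479, and the 21 genes of the gamma cluster span chr18:37660793-37841873. All 57 were measured in both libraries, with at least 5 CpG sites each in the first exon and the 1 kb upstream of it. The annotation gives the symbol Pcdha11 to 2 of the alpha genes, which are told apart here by their identifiers, ENSMUSG00000007440 and ENSMUSG00000102206.

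Clustered protocadherins are cell adhesion proteins of the cadherin superfamily, and neurons use combinations of them to tell their own branches from those of other cells. In the alpha and gamma clusters, each gene is a large variable first exon with a promoter of its own, which is spliced to constant exons that the whole cluster shares, whereas a beta gene carries its coding sequence in a single exon and has no constant exons. In neurons most of these promoters are chosen at random, a choice tied to CTCF and cohesin and to DNA methylation laid down early in development, largely by DNMT3B. The C-type genes at the downstream ends of the alpha and gamma clusters, Pcdhac1, Pcdhac2, Pcdhgc3, Pcdhgc4 and Pcdhgc5, are known for a more regular expression.

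SCoTCH-seq reads the cytosines of both strands of a CpG from 1 DNA fragment and calls its state. It was applied to genomic DNA of E14, a line of mouse embryonic stem cells (mESCs) kept in serum and LIF with no treatment, in 2 libraries from separate passages, called replicate 1 and replicate 2. There was 1 condition and 1 cell line, and no transcript levels were analysed here, so no gene can be called active or silent from these data. A CpG is CC when both strands are unmodified, MM when both are methylated and MC/CM when 1 strand is methylated and the other unmodified. With a hydroxymethylated cytosine on 1 strand it is HC/CH when the other strand is unmodified, HM/MH when the other is methylated and HH when both carry it.

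Replicate 1 held 13676795 CpG sites with a mean depth of 10.5 calls, and replicate 2 held 4918612 sites with a mean depth of 6.36 calls. From the first to the last clustered protocadherin gene, 7024 sites (63.6% of the CpGs of the reference) were covered in replicate 1 and 2701 sites (24.5%) in replicate 2. First exons with their upstream 1 kb held 46643 calls in replicate 1 and 10970 in replicate 2. Replicate 1 is therefore the more precise library for single genes. Levels are shares of all calls in a region, given for replicate 1 and then replicate 2, with the mean ± SD (n = 2) where it is stated. First exons with upstream of 7 of 8 stem cell marker genes had enough sites, with a median CC level of 99.0% and 100%. Other protein-coding genes had a median of 88.3% and 87.5%, so high CC is not particular to markers and does not identify the cells. Esrrb, the marker with too few sites, had 74.1% CC in replicate 1 and 23.8% over 4 sites in replicate 2. Pou5f1, the gene of OCT4, stood at 99.0% and 100%. Nanog, another core pluripotency gene, was lower, at 72.0% CC and 23.2% MM in replicate 1 and 76.9% CC and 18.7% MM in replicate 2.

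First exons with their upstream 1 kb were less methylated than the DNA between them in all 3 clusters. In the alpha cluster, CC was 65.1% in replicate 1 and 61.2% in replicate 2 (63.2% ± 2.8), against 21.8% and 17.5% in the DNA between first exons (19.7% ± 3.07). In the beta cluster, CC was 50.7% and 45.7% (48.2% ± 3.49), against 32.9% and 29.0% in between (31.0% ± 2.7). In the gamma cluster, CC was 67.7% and 58.8% (63.3% ± 6.3), against 35.97% and 32.2% in between (34.1% ± 2.7). The groups of values did not overlap in any cluster, and the difference was widest in alpha, at 43.5 ± 0.269 percentage points, against 29.2 ± 3.61 in gamma and 17.3 ± 0.796 in beta. For comparison, CC was 22.1% and 19.5% over the genome and 32.1% and 28.2% in the 1 Mb on either side of the clusters. Both of these were taken whole, with the first exons in them, here and below.

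Fully methylated CpGs mirrored this pattern. MM was 23.5% and 26.1% at alpha first exons, 33.0% and 36.9% at beta and 20.8% and 27.8% at gamma. In the DNA between, MM was 55.7% and 60.6% in alpha, 46.1% and 49.6% in beta and 41.8% and 45.9% in gamma. MM was thus lower at first exons by 33.4 ± 1.6 percentage points in alpha, 12.8 ± 0.309 in beta and 19.5 ± 2.07 in gamma. Hemimethylated CpGs followed, with MC/CM at 5.56% and 7.04% in alpha, 9.16% and 10.7% in beta and 5.51% and 6.63% in gamma first exons, and between 13.2% and 18.4% in the DNA between them. Beta first exons stood apart from alpha and gamma by lower CC and higher MM and MC/CM in both replicates. They also had the fewest CpGs, 17.9 per kb, against 36.3 in alpha and 31.6 in gamma.

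**Figure D1:**
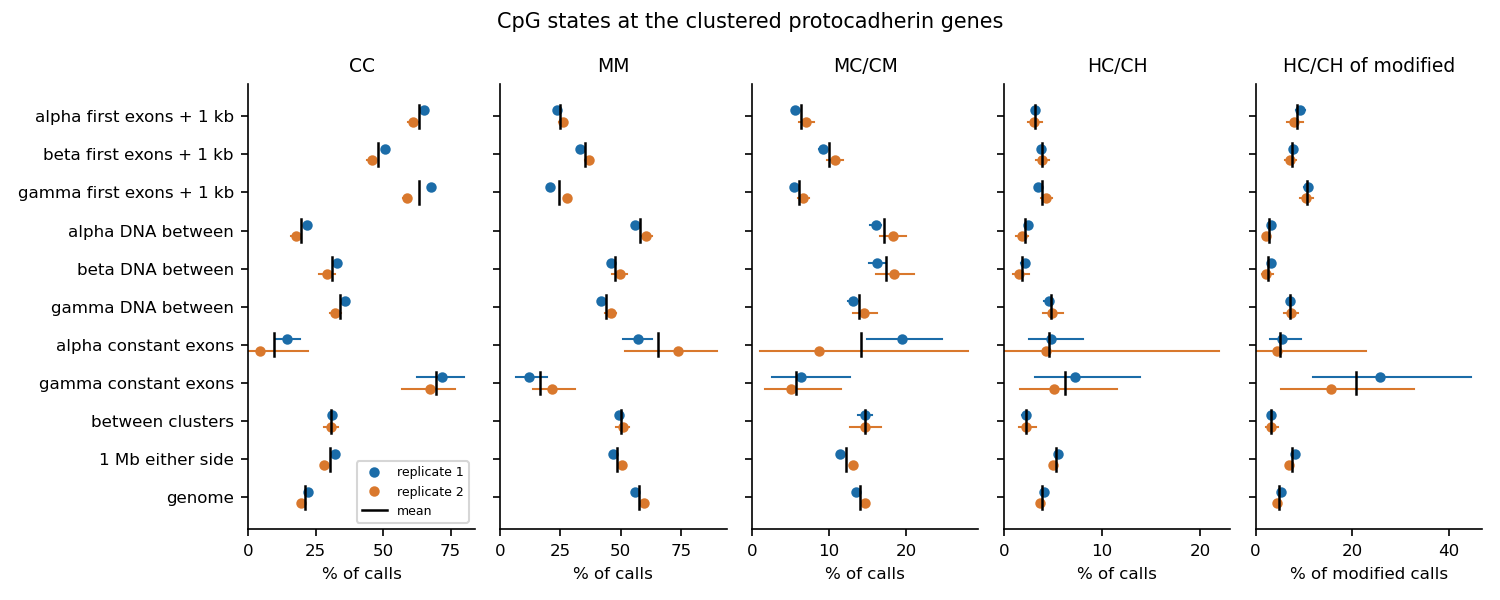
Levels of 4 CpG states, as a percentage of calls, and HC/CH as a percentage of modified calls, in each class of DNA (rows). Points are the 2 replicates, horizontal lines are 95% Clopper-Pearson intervals and vertical ticks are means; first exons with upstream lie to the right of the DNA between them for CC in every cluster.

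The constant exons of the clusters differed in level. In the alpha constant exons, which encode the shared cytoplasmic end of the alpha proteins, CC was 14.3% of 272 calls and 4.35% of 23 calls. In the gamma constant exons, CC was 71.8% of 110 calls and 67.3% of 98 calls. The 95% intervals of the clusters did not overlap in either replicate, though they cover counting error only, here and throughout. The calls came from few CpGs, with only 3 alpha and 8 gamma sites covered in both replicates. MM was 57.0% and 73.9% in alpha and 11.8% and 21.4% in gamma constant exons. The DNA between the clusters, at 30.9% and 30.5% CC, was close to the level of the 1 Mb on either side.

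Summed over each cluster, CC was high around the start of the first exon. In the 250 bp before the start, CC was 82.0% and 87.4% in alpha, 86.3% and 90.9% in beta and 94.7% and 94.4% in gamma. In the 250 bp after it, CC was 88.3% and 93.2% in alpha and 98.9% and 98.4% in gamma, but 69.9% and 67.4% in beta. Upstream, CC fell to 35.6% and 30.0% in alpha, 32.6% and 23.2% in beta and 22.2% and 25.4% in gamma in the bin from 1250 to 1000 bp before the start. The 3 clusters also differed inside the exon. In alpha and gamma, CC stayed high over the first 500 bp and then fell to 41.9% and 32.6% in alpha at 1000 to 1250 bp and to 44.4% and 34.7% in gamma at 1250 to 1500 bp. In beta, CC was 25.5% and 16.1% at 1000 to 1250 bp and rose to a second maximum of 83.4% and 79.9% at 2000 to 2250 bp after the start.

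**Figure D2:**
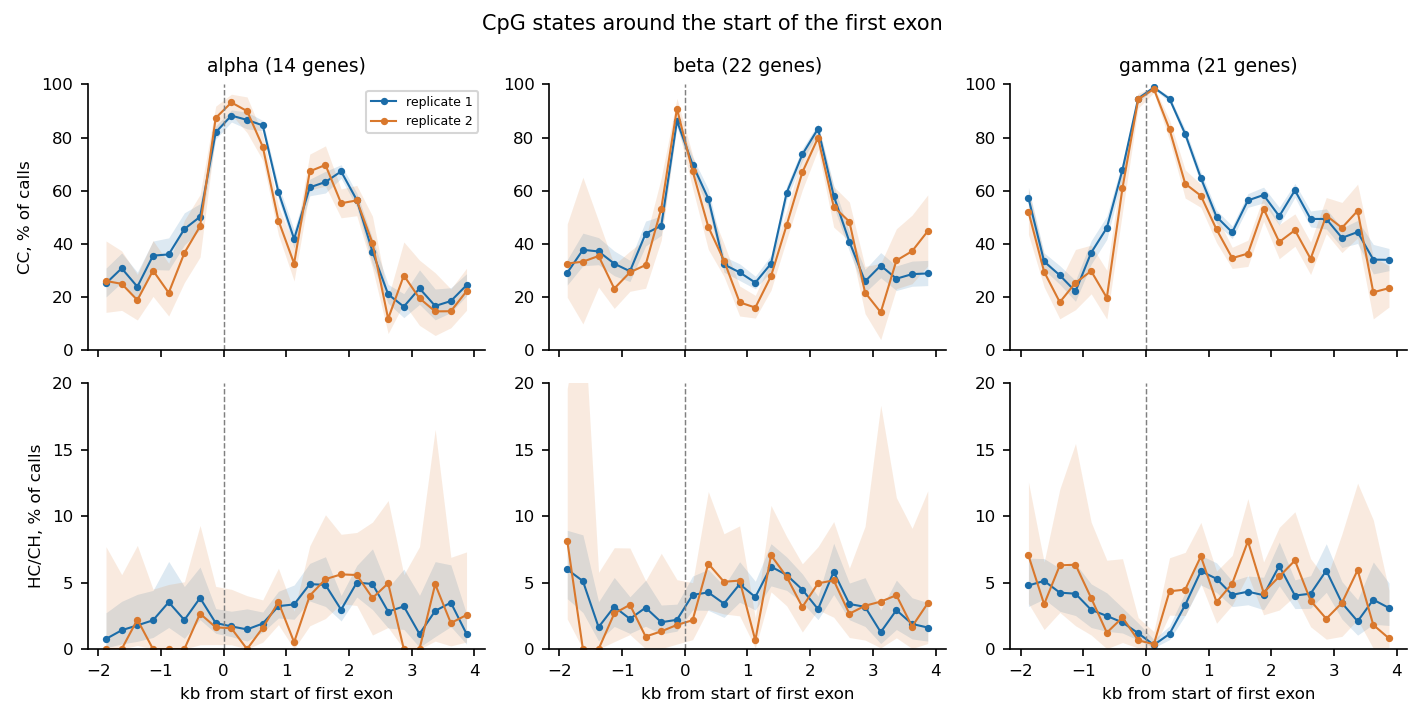
CC (top) and HC/CH (bottom) as percentages of calls, in bins of 250 bp from 2 kb before to 4 kb after the start of the first exon, summed over the genes of each cluster. Lines are the replicates and shading is the 95% Clopper-Pearson interval, which is not drawn past 20% for HC/CH; CC peaks at the start in all clusters, and in beta a second peak stands at 2 to 2.25 kb.

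At the level of single genes, CC within 250 bp on either side of the start was at least 90% in 19 of 20 gamma genes with at least 10 calls there in replicate 1 and in 15 of 17 in replicate 2. In alpha it was at least 90% in 9 of 14 and 8 of 11 genes, and in beta in 4 of 22 and 4 of 17. Over the 45 members with calls in both replicates, 26 passed 90% in both, beside 65.8% of all protein-coding genes with such calls. The median member stood at 92.6% in replicate 1 and 92.9% in replicate 2, below the 98.1% and 100% of all protein-coding genes. The gamma medians were 98.1% and 97.1%, close to those of all genes, and the beta medians were 78.8% and 80%.

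A few starts were exceptions. Pcdha8 had 17.2% CC and 62.5% MM over 128 calls in replicate 1, and a single site with 6 calls in replicate 2, all of them MM. Pcdha7 had 62.5% CC in both replicates, and Pcdha6 had 75.4% and 82.1%. These 3 neighbours in the alpha cluster were the lowest alpha starts in replicate 1. In the beta cluster, Pcdhb12 had 42.5% and 23.1% CC at its start, the lowest of the beta genes, while Pcdhb3 had 96.7% and 100% over 61 and 12 calls. At most 50% CC was found in 2 of 56 members in replicate 1, beside 27.2% of all genes, and in 2 of 45 in replicate 2, beside 21%.

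Each first exon was then divided into 5 segments of equal length, numbered from the 5′ end, a division chosen after seeing the data like the window around the start. In alpha, CC was 88.0% and 93.0% in the first segment and 48.8% and 49.1% in the middle segment. In gamma, it was 96.4% and 90.7% in the first segment and 46.0% and 33.9% in the middle segment. Every alpha gene (10 of 10) and gamma gene (19 of 19) with any calls in both segments and replicates, some with few in replicate 2, had more CC in the first than in the middle segment in both replicates. Summed over the beta genes, CC was lower in the first segment, with 49.5% and 45.9% in the first and 62.2% and 53.3% in the middle segment. First exons were longer in beta, with a median of 3714 bp, against 2490 bp in alpha and 2607 bp in gamma. The segments of the clusters thus reach unlike distances from the start. Among 17 beta genes with calls, 6 were higher and 8 lower in the first segment in both replicates. Over all members, 35 of 46 were higher in the first segment, beside 355 of 1245 genes with such calls (28.5%), and 8 were lower, beside 145 (11.6%). The remaining genes, most of the background, had equal levels or changed direction between replicates, so the shares do not compare direction alone. The last segment was lower than the first in both replicates in 33 of 41 members, beside 39.1% of all genes.

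**Figure D3:**
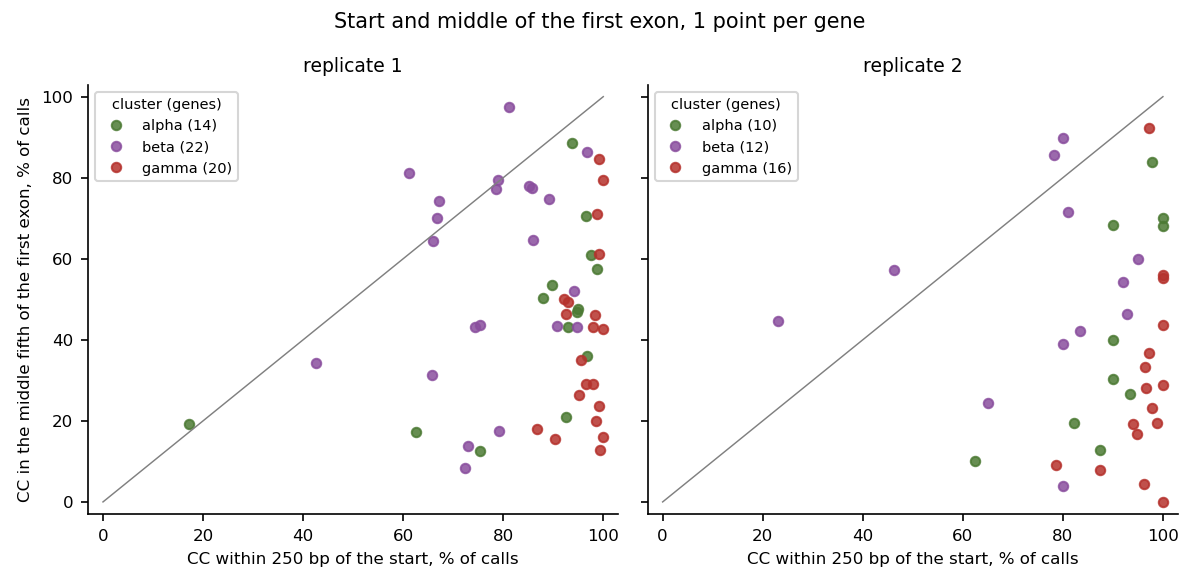
CC within 250 bp of the start (horizontal) against CC in the middle segment of the first exon (vertical), both in percent of calls, for genes with at least 10 calls in both windows. Each point is a gene and the line marks equal levels; gamma and alpha genes lie below the line, with most starts near 100% and middles spread from 0 to over 90%, except Pcdha8, and beta genes lie on both sides of it.

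Averaged gene by gene over the whole first exon with 1 kb upstream, most members were neither unmethylated nor fully methylated. CC lay from 20 to 80% in both replicates in 50 of the 57 members, namely 11 of 14 alpha, 22 of 22 beta and 17 of 21 gamma genes, beside 20.3% of all genes with enough sites and 26.5% of the other genes within the members' range of CpG density. First exons of members had a median length of 2611 bp, and neither background was matched for length. Each level pools the start of the exon with the rest of it. CC was over 80% in both replicates in 2 members, beside 55% of all genes, and under 20% in 1 member, beside 7.65%. Single CpGs were counted in the same way. Of 2083 member CpGs with at least 10 calls in replicate 1, 41.5% had a CC level between 20 and 80%, against 20.8% of 144772 such CpGs of other genes and 42.3% of 1188 in the DNA between the members' first exons. In replicate 2, where only 83 member CpGs had 10 calls, the share was 32.5%, against 18.2% of 6663 and 24.1% of 54.

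The order of the members was similar in the replicates for CC and MM. Across the 57 members, Spearman's rho between replicates was 0.81 for CC and 0.76 for MM, but 0.31 for HC/CH and 0.08 for HM/MH. Within clusters, rho for CC was 0.83 over the 14 alpha, 0.59 over the 22 beta and 0.79 over the 21 gamma genes. These points share the libraries and their depths. Levels of HC/CH and HM/MH in single members rest on few calls and are hardly ordered between the replicates.

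In the alpha cluster, the members with the highest MM lay next to each other. Pcdha8 (first exon chr18:36992371-36994848), the highest of all 57 in mean MM, had 18.9% and 13.3% CC and 59.0% and 70.0% MM, though replicate 2 covered only 10 sites there with 60 calls. Pcdha6 had 42.2% and 35.96% CC with 40.4% and 50.0% MM, and Pcdha7 had 40.9% and 26.8% CC with 45.0% and 43.8% MM. All other alpha genes were above 50% CC in both replicates. At the other end, Pcdha12 had 89.3% and 75.6% CC with 6.02% and 17.8% MM, and Pcdha4 had 82.2% and 80.6% CC with 11.1% and 13.6% MM. Pcdha3 had the widest gap between replicates in this cluster, with 76.5% and 53.2% CC. The C-type alpha genes lay in the middle, with Pcdhac1 at 60.3% and 65.6% CC and Pcdhac2, the last alpha gene, at 70.2% and 63.5%.

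In the beta cluster the spread was narrower, with mean CC from 35.6% in Pcdhb15 to 70.3% in Pcdhb5, which had only 9 sites in replicate 2. Pcdhb15 had 41.9% and 29.2% CC with 41.2% and 50.0% MM, and Pcdhb16 had 39.8% and 34.3% CC with 42.2% and 47.5% MM. Pcdhb10 had 65.0% and 59.4% CC with 22.8% and 22.6% MM, and Pcdhb21 had 62.96% and 55.3% CC with 22.1% and 25.0% MM. These 4 were chosen for the highest and lowest mean MM of the cluster. Pcdhb1, the first and somewhat isolated gene of the cluster, had 51.4% and 51.8% CC, close to the cluster's level. Pcdhb19 went furthest against the usual order of the libraries in this cluster, with 34.7% in replicate 1 and 52.3% in replicate 2.

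In the gamma cluster, CC differed along the chromosome. The first 9 genes, from Pcdhga1 to Pcdhga7, together had 52.5% and 46.2% CC, and the next 9, from Pcdhgb4 to Pcdhga12, had 76.6% and 68.2%. In replicate 1 the ranges did not overlap, at 46.9 to 59.5% and 64.3 to 87.3%, whereas in replicate 2 they did, at 31.8 to 69.9% and 52.5 to 90.4%. This split was made after the values were seen and was not tested. The 2 groups were not matched for subfamily or CpG density, so position cannot be told apart from these. Pcdhgb genes together had 72.4% and 65.5% CC, and Pcdhga genes 62.4% and 55.9%. Across the 57 members, Spearman's rho of CpG per kb with CC was 0.63 in replicate 1 and 0.50 in replicate 2. Pcdhga7 had 53.3% and 31.8% CC with 35.7% and 51.5% MM, and Pcdhga2 had 46.9% and 33.1% CC with 36.5% and 50.6% MM. Pcdhgb6 (first exon chr18:37742094-37744658) had the lowest mean MM and highest mean CC of the 57, at 87.3% and 90.4% CC and 8.34% and 4.81% MM. Pcdhga12 followed in the ranking by MM within the cluster, with 84.0% and 75.2% CC and 8.17% and 13.5% MM.

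The 3 C-type gamma genes, which share the constant exons with the rest of the cluster, were unlike each other. Pcdhgc3 had 86.2% and 74.2% CC, and all of its 274 and 60 calls within 250 bp of the start were CC. Pcdhgc4 had 78.4% and 57.4% CC, a wide gap between replicates. Pcdhgc5 (first exon chr18:37819513-37822134) had 45.7% and 26.6% CC with 35.5% and 47.3% MM, the lowest mean CC of the cluster, although its start was at 86.8% and 87.5%.

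**Figure D4:**
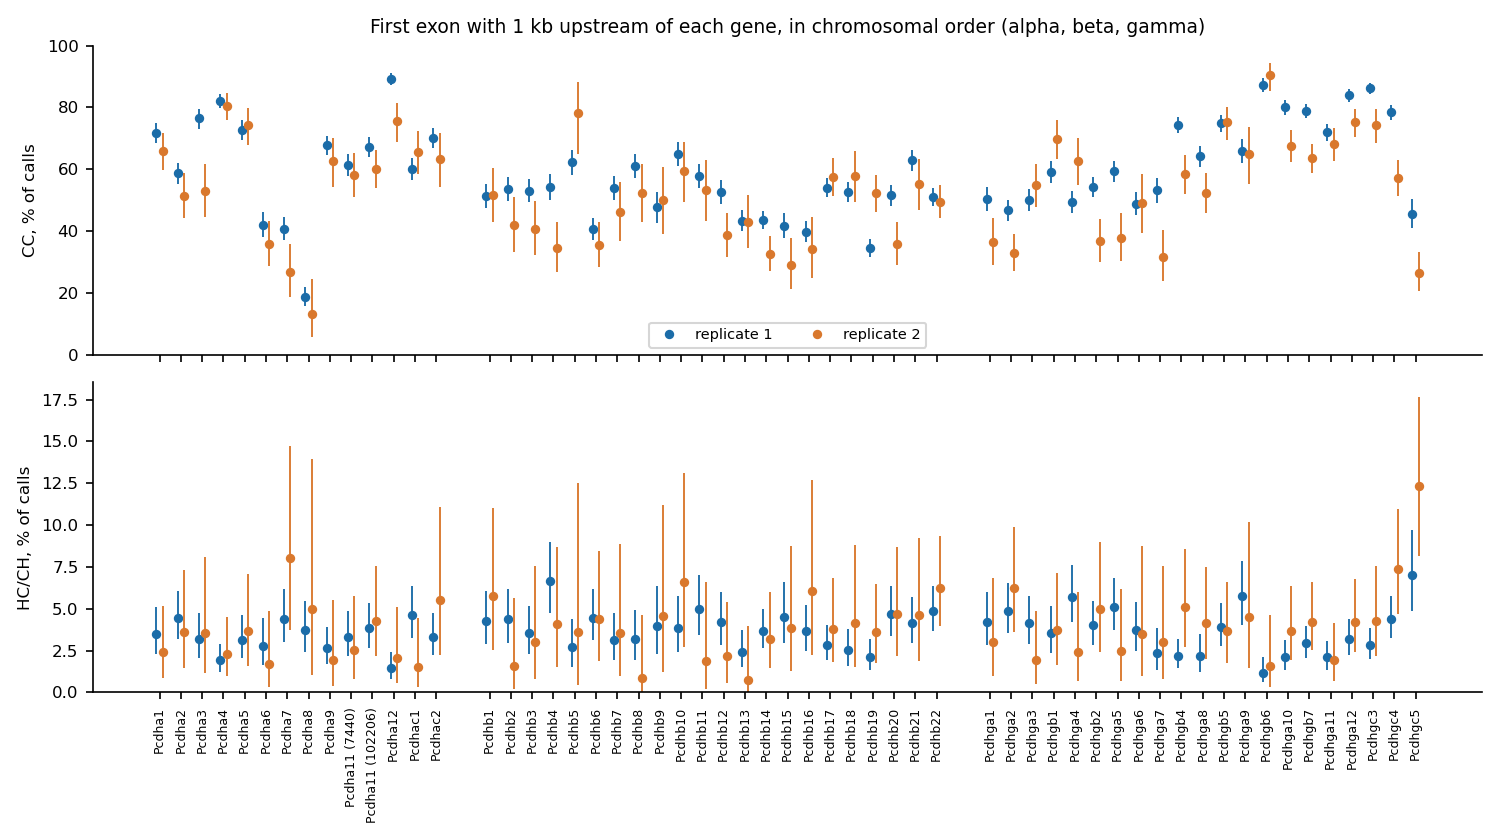
CC (top) and HC/CH (bottom), as percentages of calls in the first exon with 1 kb upstream, for each member in chromosomal order, with a gap between clusters. Points are the replicates and bars are 95% Clopper-Pearson intervals; Pcdha6, Pcdha7 and Pcdha8 form a low stretch of CC in alpha, and Pcdhgc5 has the highest HC/CH.

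Hydroxymethylated CpGs were sought next, since HC/CH and HM/MH are the states in which TET enzymes have begun to oxidise a methylated site. HC/CH at first exons with upstream was 3.23% and 3.12% in alpha, 3.83% and 3.88% in beta and 3.49% and 4.30% in gamma, near the 4.06% and 3.66% of the genome. In the DNA between, it was 2.49% and 1.82% in alpha, 2.11% and 1.57% in beta and 4.57% and 4.95% in gamma. First exons were thus higher by 1.02 ± 0.4 percentage points in alpha and 2.01 ± 0.418 in beta. In gamma they were lower by 0.864 ± 0.295, a direction that turned to 0.159 higher when sites needed 7 calls. The 1 Mb on either side, taken whole, had 5.52% and 5.04%, above all of these classes. MC sites of known state on spike-in duplexes were miscalled as HC at 3.49% in replicate 1 and 0.604% in replicate 2. After correction, HC/CH in the DNA between was 1.84% and 1.66% in alpha, 1.46% and 1.40% in beta and 4.05% and 4.98% in gamma. The corrected mean difference of first exons kept its direction, at 1.24 percentage points in alpha, 2.21 in beta and -0.751 in gamma.

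Since first exons hold fewer modified CpGs, HC/CH was also taken as a share of the modified calls (all calls but CC), a measure chosen after seeing the data. On this scale it was 9.26% and 8.04% at alpha first exons with upstream against 3.18% and 2.20% in between, 7.77% and 7.15% in beta against 3.15% and 2.21%, and 10.8% and 10.4% in gamma against 7.13% and 7.30%. The first-exon share was higher in all 3 clusters and both replicates, and the genome stood at 5.21% and 4.54%. The 1 Mb on either side had 8.13% and 7.01%, and other protein-coding genes had a median of 13.5% and 9.52% at their first exons with upstream, above the members' median of 8.98% and 7.94%. The exons and the upstream DNA differed in it. Over all members, the share was 9.60% and 9.30% in first exons and 6.34% and 3.91% in the 1 kb upstream.

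Along gamma exons, HC/CH as a share of all calls was low at the start, where few calls were anything but CC. It was 0.311% and 0.366% in the first 250 bp, and between 3.54% and 6.98% in both replicates from 750 to 1250 bp. On spike-in duplexes of known state, CC sites were miscalled as HC at 0.0768% in replicate 1 and 0.110% in replicate 2. They were miscalled as CH at the same rates, so part of the value at the start can be miscalls. By segments, HC/CH of all calls was 1.62% and 1.11% in the first segment of alpha and 4.35% and 5.17% in the last, and 0.786% and 2.07% in the first segment of gamma and 4.65% and 5.4% in the last. In beta it was 4.37% and 3.94% in the first segment and 2.10% and 4.48% in the last, so the replicates differed in direction. As a share of modified calls, the order in alpha and gamma was the reverse. In gamma, HC/CH was 28 of 130 modified calls (21.5%, 95% interval 14.8 to 29.6%) and 20 of 90 (22.2%, 14.1 to 32.2%) in the first segment, and 11.3% (9.39 to 13.4%) and 10.9% (7.45 to 15.3%) in the last. In alpha it was 21 of 156 (13.5%) and 3 of 19 (15.8%) in the first and 9.30% and 11.3% in the last, with intervals that overlap in both replicates. In beta it was 8.65% and 7.27% in the first and 3.37% and 6.76% in the last. The intervals of both gamma and beta overlap in replicate 2. Modified calls in the first gamma segment were unevenly spread over the genes. There, Pcdhgc5 had 41.3% CC of 63 calls and 29.6% of 71, and Pcdhgb2 had 81.8% of 209 and 44.4% of 27. The gamma shares of modified calls in that segment thus rest largely on few genes, and HC/CH was not counted by gene there. Across the 57 members, HC/CH as a share of modified calls was lower where MM was higher, with Spearman's rho of -0.68 in replicate 1 and -0.59 in replicate 2. These 2 measures share the modified calls in which both are counted.

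The highest mean HC/CH of any member was at Pcdhgc5, at 7.02% and 12.3% (9.67% ± 3.74), followed by Pcdha7 at 4.42% and 8.04% and Pcdhgc4 at 4.39% and 7.38%. Pcdhgc5 was the highest member in both replicates. In beta, the highest mean levels were in Pcdhb22, at 4.90% and 6.27%, and Pcdhb4, at 6.63% and 4.08%. The lowest mean over replicates was that of Pcdhgb6, at 1.19% and 1.60%, which also had the highest mean CC. In alpha, Pcdhac2 followed Pcdha7, at 3.33% and 5.56%.

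HM/MH over all first exons with upstream was 2.43% and 2.28% as called. On spike-in duplexes of known state, MM sites were miscalled as HM at 2.26% in replicate 1 but 0.233% in replicate 2, and as MH at the same rates. After correction with each replicate's own rates, HM/MH was 1.2% and 2.06%, so that the replicates changed order. HH was 0.354% and 0.283% as called and 0.121% and 0.269% after correction. These states are therefore given for the family and not for single members.

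No preference for 1 strand was detectable. Methylation lay on the plus strand, the coding strand of all members, in 50.7% of 3167 MC/CM calls of first exons with upstream in replicate 1 (95% interval 48.95 to 52.5%) and 50.9% of 879 in replicate 2 (47.5 to 54.2%). Hydroxymethylation lay on it in 50.1% (47.7 to 52.6%) and 47.4% (42.6 to 52.3%) of HC/CH calls. All 4 intervals include an equal split.

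To test each gene against its surroundings, first exons with upstream were compared with their flank, the DNA within 5 kb on either side that lay in no such region of any protein-coding gene. edgeR's quasi-likelihood test was fitted over 11414 genes with at least 5 sites per region and replicate, and p-values were adjusted by Benjamini-Hochberg over all of them with a threshold of 0.05. They measure the spread between these 2 libraries only. Pcdhb13, Pcdhb16, Pcdhb17, Pcdhb18 and Pcdhb19 had too few flank sites, so 52 members were tested. Neighbouring members share flank DNA, and Pcdhb20 and Pcdhb21 had identical flank values, so their results are not independent.

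CC was higher at the first exon than in the flank in 40 of 52 members, beside 79.1% of all genes in this direction, so the share of members called (13 of 14 alpha, 10 of 17 beta and 17 of 21 gamma) was near the background. The size was smaller than at most genes, with a median log2 odds ratio of 1.96 over the members tested against 3.59 over all genes tested. First exons of members ran from 2346 to 8695 bp. The comparison with all genes was not matched for this length, here and for the other states. The members led with Pcdhgc3, where CC was 86.2% and 74.2% against 27.7% and 12.9% in the flank (log2 odds ratio 4.13 ± 0.54 SE, edgeR adjusted p = 1.69e-13). Pcdha4 and Pcdha12 were next, both at 3.86, with SE of 0.55 and 0.65. Pcdhac1 and Pcdhac2 were called at 2.36 ± 0.70 and 3.31 ± 0.67, Pcdhgb6 at 3.40 ± 0.69 and Pcdhb1 at 1.63 ± 0.70.

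MM was lower at the first exon in 31 of 52 members (12 of 14 alpha, 6 of 17 beta and 13 of 21 gamma), beside 78.3% of all genes, and MC/CM was lower in 31 of 52 (10, 6 and 15), beside 62.7%. The median log2 odds ratio of MM was -1.39 over the members and -3.34 over all genes tested. MC/CM was called higher in 1 member, Pcdhb9, at 9.95% and 11.4% against 4.23% and 0% of 31 calls, a count of 0 that allows up to 9.68% (3 counts of the total, here and for the zeros below). This call, beside 0.254% of all genes, was lost in the DESeq2 test.

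Pcdha8 did not pass for CC, at 18.9% and 13.3% against 12.9% and 11.9% in the flank (log2 odds ratio 0.48 ± 0.74, edgeR adjusted p = 0.554), nor for MM (adjusted p = 0.475). The other members not called for CC were Pcdhb3, Pcdhb4, Pcdhb6, Pcdhb7, Pcdhb8, Pcdhb9, Pcdhb14, Pcdhga1, Pcdhga2 and Pcdhgc4. Of these 11 members 7 were beta genes. For Pcdhgc4, CC was 78.4% and 57.4% against 58.1% and 58.8% in the flank, and its flank was itself split, with 22.4% and 12.5% CC before the gene and 88.1% and 100% of 54 calls after it.

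Pcdhgc5 was the exception in direction. Its first exon had less CC than its flank, 45.7% and 26.6% against 79.8% and 78.8% (log2 odds ratio -2.76 ± 0.69, edgeR adjusted p = 9.33e-05), and more MM, 35.5% and 47.3% against 10.4% and 9.62% (2.61 ± 0.63, edgeR adjusted p = 5.67e-05). It was the only member called in these directions, beside 1.93% of all genes called lower for CC and 1.03% called higher for MM. The flank sites lay mostly after the exon, where CC was 84.6% of 428 calls and 78.8% of 156, whereas 33 calls before it in replicate 1 had 18.2% CC and replicate 2 had no site there. With a flank of 10 kb, neither call was made (CC -1.14, adjusted p = 0.0924, and MM 0.97, adjusted p = 0.0999).

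**Figure D5:**
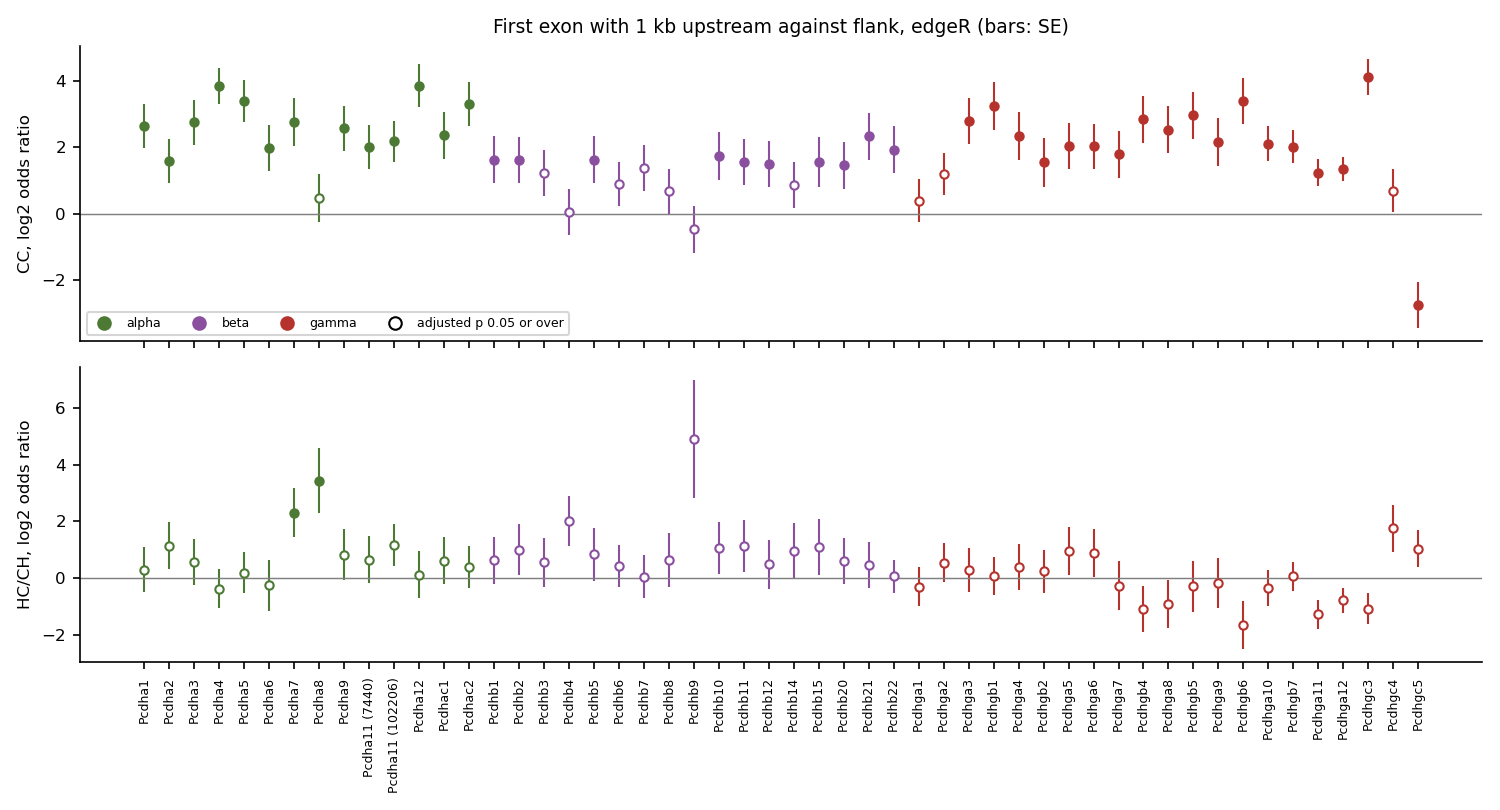
log2 odds ratio of CC (top) and HC/CH (bottom) at the first exon with 1 kb upstream against the flank, for the 52 members tested, in chromosomal order. Points are edgeR estimates, bars are SE and filled points passed an adjusted p of 0.05; CC ratios are above 0 in 50 members and HC/CH ratios in 39.

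For HC/CH, 2 of 52 members were called higher at the first exon than in the flank, beside 0.447% of all genes. Both lie in the methylated stretch of the alpha cluster. Pcdha7 had 4.42% and 8.04% against 1.32% and 0% of 104 calls, a 0 that allows up to 2.88% (edgeR adjusted p = 0.0298), and Pcdha8 had 3.73% and 5.00% against 0.439% and 0% of 118 calls, a 0 that allows up to 2.54% (edgeR adjusted p = 0.0149). Neither was called in the DESeq2 test.

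In this fit no member was called lower for HC/CH in edgeR or in DESeq2, beside 29.4% of all genes. In either direction, 7 of 52 members had an unadjusted edgeR p under 0.05, beside 4638 of all 11414 genes. With at least 10 sites or with a 10 kb flank, edgeR called 1 member lower. The median log2 odds ratio of HC/CH was 0.48 over the members and -1.34 over all genes tested. As a share of modified calls, HC/CH was higher in 3 of 52 members, beside 3.45% of the 9708 genes tested on that scale, namely Pcdha7, Pcdha8 and Pcdha11 (ENSMUSG00000102206). It was called lower in 0 members, beside 0.0412%. An unadjusted edgeR p under 0.05 was found in 23 of 52 members on that scale, beside 1918 of 9708 genes. The median log2 odds ratio was then 1.37 over the members and 1.01 over all genes. For HM/MH no member was called in edgeR or DESeq2, beside 0.0175% of all genes called higher and 17.8% called lower. An unadjusted edgeR p under 0.05 for this state was found in 3 of 52 members, beside 4242 of 11414 genes.

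Outside first exons, most of the DNA of the clusters was methylated, but some short stretches were not. Sites outside first exons with upstream were summed in windows of 1 kb. Of 43 such windows with at least 5 of these sites per replicate, 6 had at least 80% CC in both replicates, beside 4.25% of such windows in the genome. These windows were laid out after the data were seen. The adjacent windows chr18:37217001-37218000 and chr18:37218001-37219000, between Pcdhac2 and Pcdhb1, had 87.3% and 98.5% CC and 96.4% and 94.0% CC. The window chr18:37655001-37656000, which ends 5.79 kb before the first exon of Pcdhga1, had 92.5% and 86.7%.

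The other 3 lie inside the gamma cluster. The window chr18:37822001-37823000 starts within the last bases of the first exon of Pcdhgc5, and its sites after that exon had 97.2% of 179 calls and 100% of 54 calls as CC, and chr18:37841001-37842000 holds the end of the last constant exon, with 90.6% and 92.0%. The window chr18:37761001-37762000, at 89.0% and 86.9%, holds the start of Pcdhgb8. Pcdhgb8 is annotated as a polymorphic pseudogene and is not a member, but its first exon with upstream had 69.8% and 66.5% CC and 5.52% and 6.09% HC/CH, within the range of the gamma genes. It lies in the flanks of Pcdhga11 and Pcdhga12. Without it, the mean CC of the DNA between gamma first exons was 29.8% in place of 34.1%.

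Protocadherin genes outside the clusters had more CC on the median. Of 12 such genes, 10 had enough sites, with a median CC of 84.8% and 77.7%. Their range ran from Pcdh10 at 97.5% and 95.8% to Pcdh12 at 21.5% and 12.8%, with 4 of 10 from 20 to 80% in both replicates. Olfactory receptor genes, another family in tandem clusters, had enough sites in 92 of 1134 genes, with a median CC of 14.9% and 10.8% and MM of 60.0% and 65.4%, and 22.8% of them lay from 20 to 80%. The median of the clustered protocadherins, 57.9% and 53.2%, stood between those of these families, with no test made. Their CpG density was also in between, with medians of 25.0 CpGs per kb in the members, 55.2 in the other protocadherins and 7.15 in the olfactory receptor genes.

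Among 12 genes known to act on clustered protocadherin choice or methylation, 6 had enough sites, with a median CC of 97.3% and 98.9% at their own first exons with upstream. Dnmt3b, the methyltransferase of these promoters, was the lowest of the 6, at 64.4% and 54.8% CC, over 13 and 6 sites. Among those with too few sites, CC was 28.1% and 33.3% in Setdb1 and 51.2% and 53.3% in Wiz. It was 87.4% and 42.9% in Rad21 and 97.7% and 38.5% in Smc3, each over at most 4 sites in replicate 2. Smc1a had 99.4% and Dnmt3a 87.9% in replicate 1, with no site in replicate 2. Of 5 other protein-coding genes inside the span, 3 had enough sites. Gm42416, Gm37013 and Gm37388 overlap member exons, so that their values are partly those of members, and Slc25a2 and Taf7 had no site.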

How the data were processed

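Genomic DNA of 2 passages of E14 mESCs was read by SCoTCH-seq. The authors trimmed reads with cutadapt 4.6, used BSBolt for alignment against GRCm38 and Picard 3.1.1 to drop duplicates, and called the state of each CpG per read pair; the deposited files give, per site and state, the count of calls and the percentage of the site's calls, for sites with at least 5 calls outside blacklisted regions. The deposited counts and percentages were not corrected by the spike-ins. How read pairs matching several of these similar genes were placed is not given in the sources used here, so values of close paralogs are uncertain.

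Counts were summed per region and replicate over GENCODE vM21 first exons, and the deposited percentages were used only to check the counts. Levels are percentages of summed calls with exact Clopper-Pearson 95% intervals, and the limit given beside a flank share of 0 is 3 counts of its total. Corrected levels used each replicate's own spike-in call rates. State calls against all other calls at first exon and flank were tested with edgeR 4.0.16 (R 4.3.3), quasi-likelihood, in all genes with at least 5 sites per region and replicate, and with DESeq2 1.42.0 as an alternative. The SE given with an edgeR log2 odds ratio is not reported by edgeR. It was derived as the absolute log2 odds ratio divided by the square root of the test's F statistic. Other steps used Python 3.11.15, NumPy 2.4.6, pandas 2.3.3, SciPy 1.17.1 and Matplotlib 3.10.9. The test was tested on simulated data before use.

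The members named with values are the C-type genes and Pcdhb1 and, among those with at least 10 sites per replicate, the 2 of highest and 2 of lowest mean MM and the 2 of highest mean HC/CH in each cluster; others were named after their values were seen. The members and lists were chosen with earlier results of these data known. Alternatives were coverage of 7 calls, other site minimums, sites covered in both replicates, per-site means, spike-in correction, 2 kb upstream, a 10 kb flank and leaving out each replicate. DNA sequence was not used beyond CpG positions.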

Additional observations from a re-analysis of the deposited data

How the results depend on the processing

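Members called higher for CC numbered 29 to 42 under the alternatives, except 16 of 30 tested with at least 7 calls per site. That setting also lowered the members called lower for MM to 12 and for MC/CM to 13; it tests fewer members. With a 10 kb flank, 0 members were called lower for CC and 0 higher for MM. MC/CM was called higher in 0 members with DESeq2, at least 1 or 10 sites, 7 calls, 2 kb upstream or a 10 kb flank, and in 2 with sites covered in both replicates. HC/CH was called higher in 0 members with DESeq2, 7 calls or a 10 kb flank and in 1 with at least 1 site or shared sites, and lower in 1 with at least 10 sites or a 10 kb flank. The log2 odds ratio turned for Pcdha8 with a 10 kb flank (CC -0.11, MM 0.014), for Pcdhb4 with shared sites (CC -0.027) and 2 kb upstream (CC -0.26, MM 0.17) and for Pcdhga2 with 7 calls (MM 0.036).

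Leaving out each replicate, the median difference of first exon and flank over members was -8.93 to -8.61 percentage points for MC/CM, 0.860 to 1.61 for HC/CH and -0.370 to 0.412 for HM/MH. The difference of first exons and the DNA between, in percentage points, moved as follows. In alpha, CC was 44.2 by per-site means, 40.3 with 7 calls, 44.3 corrected and 41.1 with 2 kb upstream. Alpha MM was -30.3 with 7 calls, -35.2 corrected and -31.4 with 2 kb upstream, alpha HC/CH 0.562 with 7 calls, and alpha HM/MH turned to 0.0383 with 7 calls, 0.632 corrected, and ran from -1.08 to 0.595 when each replicate was left out. Beta CC was 20.3 by per-site means, 13.6 with 7 calls, 13.5 with shared sites and 15.8 with 2 kb upstream, and beta MM -15.4, -10.3, -9.59 and -12.0 under these settings and -13.5 corrected. Gamma MM was -16.9 with shared sites and with 2 kb upstream. Without Pcdhgb8, chosen after seeing the data like HC/CH per modified call, gamma CC was 33.5, MM -22.7 and MC/CM -8.81. Gamma HC/CH was -1.29 by per-site means and turned to 0.159 with 7 calls. The cause was not tested.

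Replicate 2 had 10970 calls at first exons with upstream against 46643, which limits single members and the rarer states most. The series has 1 group, so no samples are paired across groups; first exon and other DNA were compared within each library, and the edgeR fit holds a term for the library.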
